A study of Mus musculus with 2 samples.

Results

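Clec4a4 high cDC2s are conventional dendritic cells of the mouse spleen that carry transcripts of Clec4a4, the gene of the C-type lectin DCIR2, and lack those of Cd209a and Mgl2. They were selected on measured values, as cells with at least 2 Clec4a4 UMIs, 0 UMIs of Cd209a, Mgl2, Clec9a and Xcr1, fewer than 2 of Ccr7, fewer than 3 of C1qb and fewer than 6 of Top2a and Mki67 together, where a UMI (unique molecular identifier) is a captured transcript counted once. Of the 6393 cells, 351 passed, 193 of 3308 in replicate 1 and 158 of 3085 in replicate 2. Members made up 5.83% of replicate 1 (95% exact binomial interval 5.06 to 6.69) and 5.12% of replicate 2 (4.37 to 5.96), and the mean share was 5.48% ± 0.504 (SD, n = 2). The intervals cover counting error only, and the shares are those of cells enriched for CD11c.

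In the spleen, cDC2s present antigen to CD4+ T cells and depend on the transcription factor IRF4, whereas cDC1s cross-present antigen to CD8+ T cells and depend on IRF8 and BATF3. Part of the splenic cDC2s carry the adhesion molecule ESAM and DCIR2, need signals through the receptor Notch2 and lie in the bridging channels of the marginal zone, where stromal cells offer the ligand Delta-like 1. Ligand binding lets the proteases ADAM10 and γ-secretase free the intracellular part of Notch, which enters the nucleus and with RBPJ and MAML proteins switches on targets such as Dtx1 and Hes1. The other splenic cDC2s are low in ESAM, share genes with monocytes and carry the lectins Cd209a, Mgl2 and Clec10a.

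The samples were spleen cells of wild-type mice on the C57BL/6J background, adult and of both sexes per the study's methods, with no treatment named in the labels, enriched on CD11c beads and captured on the BD Rhapsody system, which isolates cells with barcoded beads in microwells. The sources used here do not give the number of mice behind each sample. The 2 samples came from 1 run, held 46953398 and 43137746 UMIs and shared 0 cell barcodes. They serve as the replicates, so that the p-values measure how constant a difference was over these samples. Per the methods, cells were labelled with sample tags before capture and assigned to samples afterwards. Whether the samples had separate captures or libraries is not stated, so the p-values may leave out that spread. The sum of the members was 2238163 UMIs in replicate 1 and 1814780 in replicate 2, with a median of 11342 and 10980 per cell.

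Of the 1133 cells with at least 2 Clec4a4 UMIs, 782 did not pass the other gates, and a cell may fail several. The gate on Cd209a and Mgl2 took out the most, 277 cells in replicate 1 and 228 in replicate 2. The gate on Clec9a and Xcr1 took out 159 and 124, that on cycling genes 74 and 84, that on Ccr7 43 and 46 and that on C1qb 13 and 6. Members held a median of 3 Clec4a4 UMIs in both replicates and at most 14 and 13. Just inside the threshold, 84 and 69 members held 2 UMIs, and just outside it 132 and 98 cells held 1 UMI and passed every other gate.

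The members were compared with Cd209a/Mgl2 cDC2s, which held at least 3 UMIs of Cd209a, Mgl2 and Clec10a together and 0 of Clec4a4 and passed the members' gates on Clec9a, Xcr1, Ccr7, C1qb and cycling genes. They numbered 143 and 105, and their median cell held 10519 and 10096 UMIs. A further comparison was made with 657 and 556 cDC1s, whose median was higher at 17445 and 19302 UMIs. UMIs were summed per group and sample and tested with edgeR's quasi-likelihood test (n = 2 sums per group, Benjamini-Hochberg adjusted p under 0.05). Levels are given in CPM, the UMIs of a gene in every 1000000 UMIs of its group. The gate genes were left out of the tests, but the UMIs of the same cells set the gates and gave the other genes. On the gate genes themselves, members held 289 and 279 CPM of Clec4a4 and Cd209a/Mgl2 cDC2s held 979 and 959 CPM of Cd209a and 111 and 130 CPM of Mgl2. Clec10a, on which the members were not gated, stood at 0.447 and 0.551 CPM in members against 89.9 and 63.9 CPM in the comparison group, which was chosen on it.

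The label of these cells was set beside the markers of cDC2s and those of other cells. The gates had already removed cells by Clec9a, Xcr1, C1qb and Ccr7. The cDC1s, macrophages and mature DCs set beside the members were chosen on these same genes. Low levels of their other markers in members are thus tied to the gates and are no independent check. Sirpa, the inhibitory receptor that marks cDC2s, stood at 323 and 284 CPM in members, 302 and 286 CPM in Cd209a/Mgl2 cDC2s and 17.5 and 19.6 CPM in cDC1s. Irf4 stood at 92.0 and 92.0 CPM in members, 72.4 and 93.6 CPM in Cd209a/Mgl2 cDC2s and 3.16 and 6.83 CPM in cDC1s. Members thus resembled the other cDC2s and not cDC1s in both genes. Against cDC1s, all 12 of 12 cDC1 markers tested were lower in members (median log2 fold change -5.60), and of 10 cDC2 markers 7 were higher and 2, Clec12a and Flt3, lower (median 3.44), where 19% of the 11625 genes tested were higher and 20.9% lower. The summed level of 12 macrophage markers was 206 and 204 CPM in members, under 1% of that of macrophages in the same samples (0.654% and 0.719%). For 8 T cell markers the share of the T cell level was 0.162% and 0.661%, for 8 B cell markers 0.947% and 0.527% of the B cell level and for 8 NK cell markers 0.700% and 0.116% of the NK cell level. For 9 pDC markers the share was 4.94% and 3.89% of the pDC level, for 8 markers of mature DCs 4.42% and 4.04% of the mature DC level and for 12 cDC1 markers 13.3% and 12.4% of the cDC1 level, and 11 monocyte markers summed to 569 and 641 CPM, 8 neutrophil markers to 5.36 and 6.06 CPM, 6 erythroid markers to 13 and 11.6 CPM and 5 platelet markers to 0.447 and 0.551 CPM. Of all these lists, Cd8b1 of T cells, Klra8 of NK cells, Nudt17 of mature DCs, Klk1, Cox6a2 and D13Ertd608e of the pDCs, Ly6g, Camp, Retnlg and Mmp8 of neutrophils, Pf4, Ppbp, Gp9 and Gp1bb of platelets and Chil3 of monocytes were at 0 UMIs in both samples.

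The markers other than Clec4a4 by which the cells are known were Dtx1, Mmp9 and Esam. They were named from earlier results of the same cells, so that their levels are no independent evidence for the name. Dtx1 encodes Deltex, an E3 ubiquitin ligase that Notch signalling induces and that acts back on it. Its level was 366 and 403 CPM in members, 103 and 74.1 CPM in Cd209a/Mgl2 cDC2s and 4.69 and 4.01 CPM in cDC1s. The members lay above both groups in both samples, 4.05-fold above Cd209a/Mgl2 cDC2s (log2 fold change 2.02, SE 0.15, adjusted p = 8.06e-07) and 76.6-fold above cDC1s (adjusted p = 1.92e-11). Dtx1 was not confined to the members. B cells of the same samples held 252 and 177 CPM of Dtx1, T cells 202 and 186 CPM, NK cells 150 and 145 CPM and mature DCs 128 and 121 CPM. Macrophages were low at 14.2 and 4.33 CPM.

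Esam encodes the endothelial cell-selective adhesion molecule of cell junctions. Its level was 45.6 and 62.8 CPM in members and 14.8 and 12 CPM in Cd209a/Mgl2 cDC2s, 3.74-fold higher in members (log2 fold change 1.90, SE 0.29, adjusted p = 0.000747), without overlap of the samples. Mature DCs, at 71.2 and 61.2 CPM of Esam, overlapped with the members. Mmp9 encodes a secreted gelatinase that cleaves basement membrane collagen. It stood at 45.6 and 40.8 CPM in members and 16.1 and 9.27 CPM in Cd209a/Mgl2 cDC2s, 3.11-fold higher in members (log2 fold change 1.64, SE 0.30, adjusted p = 0.00306). Cells with at least 2 Clec4a4 UMIs that also held Cd209a or Mgl2 and passed the other gates, 173 and 138 in number, were not members. In these double positive cells Dtx1 stood at 243 and 247 CPM, between both groups, Esam at 38.5 and 40.4 CPM and Mmp9 at 50.5 and 48.4 CPM.

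**Figure D1:**
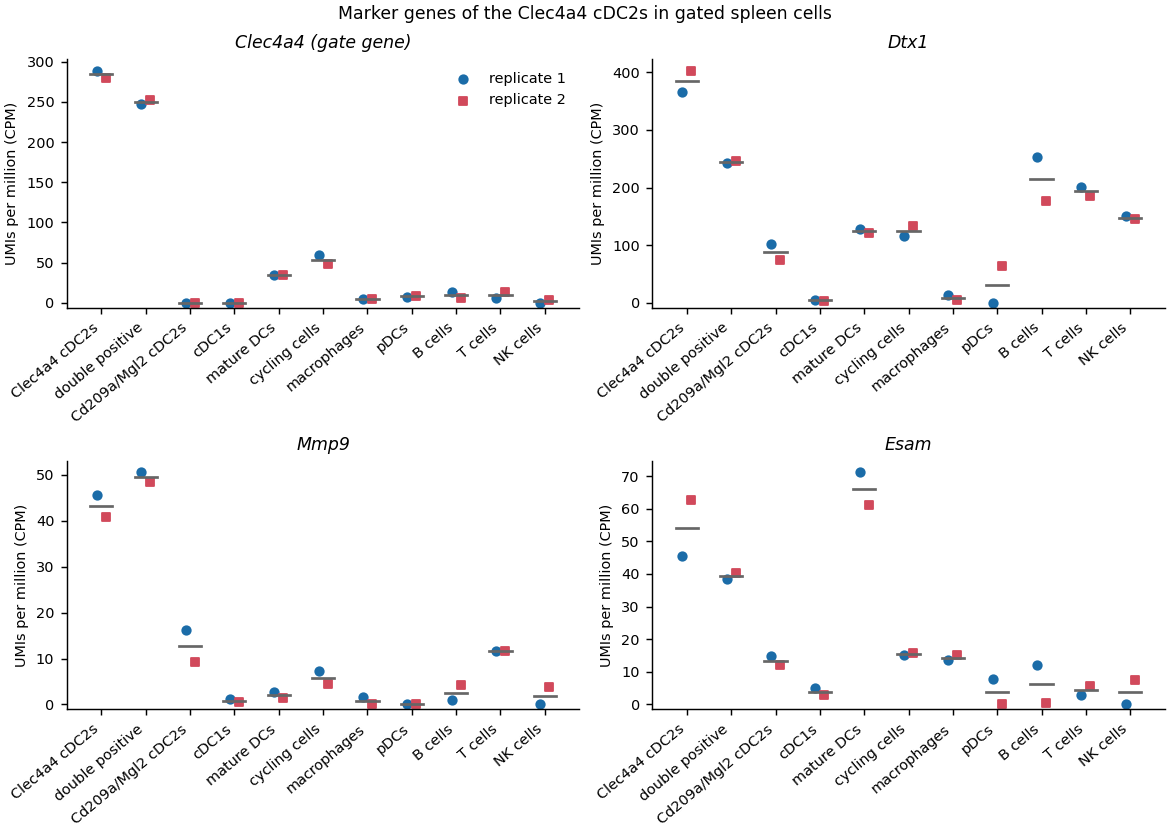
Levels of Clec4a4, Dtx1, Mmp9 and Esam in 11 gated groups of cells, in CPM. Points are the replicates and bars their means. Clec4a4 defined the first group. Dtx1 is highest in the members (366 and 403 CPM) and next in B cells and double positive cells, while Esam of mature DCs reaches the members' level.

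Within the members the markers were unevenly spread over cells. A Dtx1 UMI was found in 77.2% and 74.7% of members, in 26.6% and 24.8% of Cd209a/Mgl2 cDC2s and in 3.35% and 3.96% of the deeper cDC1s. An Esam UMI was found in 34.7% and 38.6% of members, against 10.5% and 8.57% of Cd209a/Mgl2 cDC2s and 2.08% and 2.79% of T cells. The T cells were shallower than the members, at a median of 6041 and 6409 UMIs. After every cell was thinned to 5000 UMIs, with 1 and 2 shallower members left out, the shares with Dtx1 were 63.5% and 62.8% in members and 21.0% and 18.6% in Cd209a/Mgl2 cDC2s. Of the members, 12 and 13 held all of Dtx1, Mmp9 and Esam, 62 and 48 held 2 of them, 89 and 65 held 1 and 30 and 32 held 0. Members with at least 5 Dtx1 UMIs numbered 72 and 56, and the highest held 22 and 26.

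The levels were also read by the Clec4a4 count among cells that passed the other gates. Cells with 1 Clec4a4 UMI, which were not members, held 445 and 372 CPM of Dtx1. Cells with 2 UMIs held 383 and 393 CPM, those with 3 held 327 and 379 CPM and those with 4 or more held 370 and 431 CPM. The Dtx1 levels on either side of the threshold thus overlapped. Cells with 0 Clec4a4 UMIs, which include lymphocytes and other cells that no gate removed, held 273 and 216 CPM of Dtx1. Esam stood at 55.1 and 41.5 CPM in cells with 1 UMI and, in the bins of the members, between 43.0 and 71.6 CPM, against 29.1 and 15.8 CPM at 0 UMIs. Mmp9 stood at 39.5 and 93.5 CPM at 0 UMIs and 47.8 and 36.3 CPM at 1 UMI. Members held 38.1 and 20.1 CPM of Mmp9 with 2 UMIs, 37.0 and 48.4 with 3 and 58.2 and 57.4 with 4 or more. The bins with 2 and with 4 or more did not overlap, but the cells with 0 UMIs overlapped with the members. Ccr2 stood at 116 and 145 CPM at 0 UMIs and 1.62 and 2.07 CPM at 1 UMI.

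**Figure D2:**
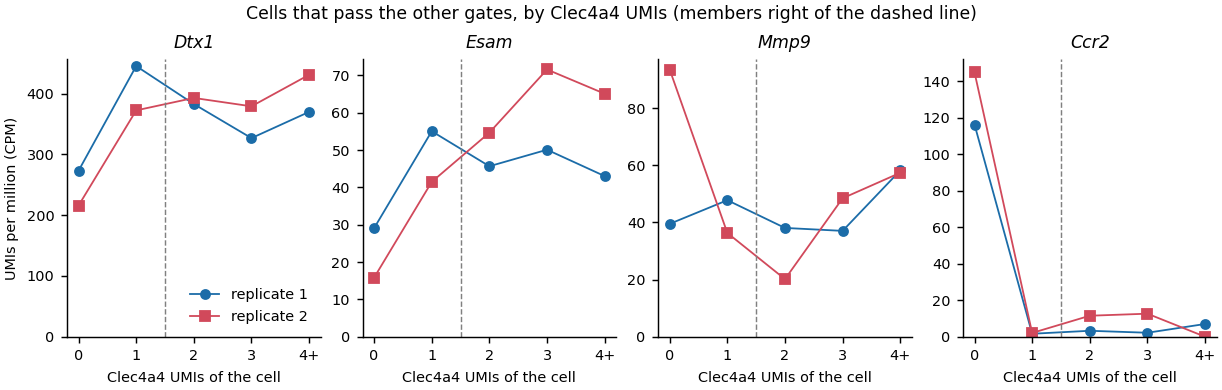
Levels of Dtx1, Esam, Mmp9 and Ccr2 (CPM) by the number of Clec4a4 UMIs of a cell, among cells that passed every other gate, with 1 point per replicate. Members are the cells with 2 or more. Dtx1 in cells with 1 UMI (445 and 372 CPM) overlaps with the members, and Ccr2 is high only in the bin with 0 UMIs (116 and 145 CPM).

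Clec4a4 (chr6:122990367-123024105, plus strand), Dtx1 (chr5:120680202-120711927, minus strand), Mmp9 (chr2:164940780-164955850, plus strand) and Esam (chr9:37528078-37538319, plus strand) are protein-coding genes on GRCm38 in the GENCODE vM21 annotation, with 0 other gene models overlapping them. The Clec4a4 transcript of 776 bases shares an unbroken run of 163 bases with Clec4a2, 40 with Clec4a3, 36 with Clec4b1 and 23 with Clec4a1, and reads inside such a run cannot be told apart. The 250 bases before the RefSeq start of Dtx1, the leading Notch target here, are shown in full, 5′ to 3′ on the gene's strand (chr5:120711670-120711919, GRCm38.p6, minus strand). In the GENCODE annotation the gene starts at 120711927, so this stretch lies inside that gene model.
Dtx1: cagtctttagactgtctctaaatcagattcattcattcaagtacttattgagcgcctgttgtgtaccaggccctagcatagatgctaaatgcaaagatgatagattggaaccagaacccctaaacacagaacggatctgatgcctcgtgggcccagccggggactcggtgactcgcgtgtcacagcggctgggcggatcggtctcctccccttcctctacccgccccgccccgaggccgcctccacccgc

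RBPJ, which carries Notch to DNA, binds the core TGGGAA, and this core or its complement TTCCCA is not among the 250 bases of Dtx1 shown. The bases before the GENCODE start of Dtx1 were not searched. A match is a description only. Among 12 leading genes that were higher in members, introduced below, 8 had a RefSeq promoter and 4 of these held the core within 250 bases of their start. They are shown to place the core before the start of these genes, in windows of 30 bases with the core in capitals.
Ifitm1 (chr7:140967933-140967962, plus strand): agtcacctctccTTCCCAgtggagggggtg
Eml5 (chr12:98901664-98901693, minus strand): gtctcgcgagggTGGGAAcgggtgcttaga
Ptpn3 (chr4:57302058-57302087, minus strand): gtcTTCCCAccatgcttgggggaggagggt
Phc1 (chr6:122340268-122340297, minus strand): ttcgagcccctaTTCCCAgaagctgcagaa
The core spans positions -131 to -126 before the start of Ifitm1, -197 to -192 for Eml5, -247 to -242 for Ptpn3 and -58 to -53 for Phc1. It was found on either strand in 24.1% of 27025 promoters of this length and in 22.9% of the 7458 promoters of genes tested. The share was 21.5% of the 200 promoters of genes higher in members and 23.9% of the 360 promoters of genes lower in members.

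Against Cd209a/Mgl2 cDC2s, 737 of 9384 genes passed the test. Of these, 269 were higher in members, 2.87% of the genes tested, and 468 were lower, 4.99%, and all 737 had the same direction in both samples. The genes given first are among the 12 that changed the most in each direction at 50 CPM or more in the higher group, and Dtx1 and Esam were among those on the higher side. Ryr3, an intracellular calcium release channel, stood at 106 and 113 CPM in members and 17.4 and 13.9 CPM in Cd209a/Mgl2 cDC2s, 6.48-fold higher (adjusted p = 2.14e-06). Mature DCs held more Ryr3 than the members, 208 and 183 CPM. Ifitm1, an interferon-induced membrane protein, stood at 136 and 171 CPM against 23.5 and 23.2 CPM, 6.19-fold higher (adjusted p = 1.53e-06). The samples did not overlap in either gene. An Ifitm1 UMI was found in 25.9% and 36.7% of members, 11.9% and 15.2% of Cd209a/Mgl2 cDC2s and 2.08% and 2.23% of the shallower T cells.

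Haus8, a subunit of the augmin complex of the mitotic spindle, stood at 310 and 260 CPM in members against 101 and 100 CPM (log2 fold change 1.43, SE 0.14, adjusted p = 1.1e-05). Phc1, a Polycomb subunit, stood at 108 and 77.1 CPM against 26.2 and 32.4 CPM (1.60, SE 0.23), and Eml5, a microtubule-associated protein, at 64.3 and 72.7 CPM against 20.1 and 13 CPM (1.92, SE 0.26). Gpm6b, a membrane glycoprotein of the proteolipid family, stood at 115 and 72.2 CPM against 24.8 and 23.2 CPM (log2 fold change 1.88, SE 0.26). It was not confined to the members. Mature DCs, at 93.8 and 76.5 CPM of Gpm6b, and the few pDCs, at 153 and 72.6 CPM, overlapped with them. The tyrosine phosphatase Ptpn3, the transmembrane protein Cdcp1 and the disintegrin Adam11 had log2 fold changes of 1.63, 1.60 and 1.59, with samples that did not overlap. Cdcp1 differed between the samples, with a log2 fold change of 1.11 in replicate 1 and 2.26 in replicate 2. Mature DCs held 75.0 and 69.8 CPM of Cdcp1, which overlapped with the members' 61.7 and 79.9 CPM. They held 80.9 and 99.6 CPM of Adam11, above the members' 44.7 and 65.6 CPM.

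Igkc, the immunoglobulin kappa constant region, had the largest fold change on the higher side, but 1 cell of replicate 1 held 6554 of its 6573 UMIs there, or 99.7%, and in replicate 2 1 cell held 73 of 100. The level was 2937 and 55.1 CPM in members and 26.2 and 19.5 CPM in Cd209a/Mgl2 cDC2s (log2 fold change 5.92, SE 1.21, adjusted p = 0.00629). The same cell of replicate 1 also held 1560 UMIs of Jchain, the joining chain made by plasma cells, and 2997 of Ighm, with 3 of Clec4a4. Without cells holding UMIs of other lineages the log2 fold change of Igkc was 0.88 and did not pass, and it was 1.42 in replicate 2 alone.

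Tcf7, which encodes the transcription factor TCF-1 of T cells and innate lymphoid cells, was singled out after its values were seen. It held 120 UMIs in 46 members of replicate 1 and 83 UMIs in 37 members of replicate 2, and 1 and 7 UMIs in Cd209a/Mgl2 cDC2s. On the CPM scale this is 53.6 and 45.7 in members against 0.671 and 6.49, a 14.6-fold difference (log2 fold change 3.87, SE 0.47, adjusted p = 0.000115). A Tcf7 UMI was found in 23.8% and 23.4% of members and in 1.98% and 1.98% of cDC1s. The fold change was 6.10 in replicate 1 and 2.72 in replicate 2 on the log2 scale, and in replicate 2 1 cell held 6 of the 7 UMIs of the comparison group. Of the members with a Tcf7 UMI, 4 of 46 (8.70%) and 6 of 37 (16.2%) also held a UMI of the 8 T cell markers. Of those without Tcf7, 8.16% and 4.96% did, so that the shares differed in replicate 2. Whether T cell RNA has a part in the Tcf7 level was not tested. With cells holding UMIs of other lineages left out the log2 fold change was 5.51. Tcf7 stood at 182 and 194 CPM in mature DCs, at 676 and 825 CPM in T cells and at 5.10 and 6.13 CPM in the double positive cells, which lay with the Cd209a/Mgl2 cDC2s and not with the members.

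Igkc apart, the 12 leading fold changes on the lower side were all larger than those on the higher side. Ccr2, the receptor that brings monocytes out of the bone marrow, stood at 4.47 and 7.71 CPM in members and 197 and 249 CPM in Cd209a/Mgl2 cDC2s, 39.1-fold lower in members (log2 fold change -5.29, SE 0.25, adjusted p = 1.22e-08). A Ccr2 UMI was found in 2.07% and 3.16% of members, 30.8% and 39.0% of Cd209a/Mgl2 cDC2s and 8.33% and 12.8% of T cells, so that the members lay at or below the share of T cells. Lyz2, the lysozyme of myeloid cells, stood at 38.4 and 18.7 CPM against 380 and 991 CPM (log2 fold change -4.62, SE 0.38), and the difference was -3.39 in replicate 1 and -5.80 in replicate 2. Fcgr2b, the inhibitory Fc receptor, stood at 16.5 and 12.1 CPM against 205 and 236 CPM (-4.00, SE 0.19, adjusted p = 1.53e-08). The samples of the groups did not overlap in any of these genes.

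The chemokine Ccl9 stood at 11.2 and 6.06 CPM in members against 131 and 146 CPM in Cd209a/Mgl2 cDC2s, with a log2 fold change of -4.04 (-3.63 in replicate 1 and -4.65 in replicate 2). The adhesion receptor Adgre4 stood at 13.9 and 13.8 CPM against 150 and 149 CPM, and the inhibitory lectin Clec12a at 15.2 and 9.92 CPM against 146 and 66.7 CPM. The secreted protein Olfm1, the scaffold Ahnak and the semaphorin Sema4a had log2 fold changes of -3.76, -3.45 and -3.39. Wfdc17, a small secreted inhibitor of the WAP family, had a log2 fold change of -3.43 (-4.36 in replicate 1 and -2.91 in replicate 2).

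**Figure D3:**
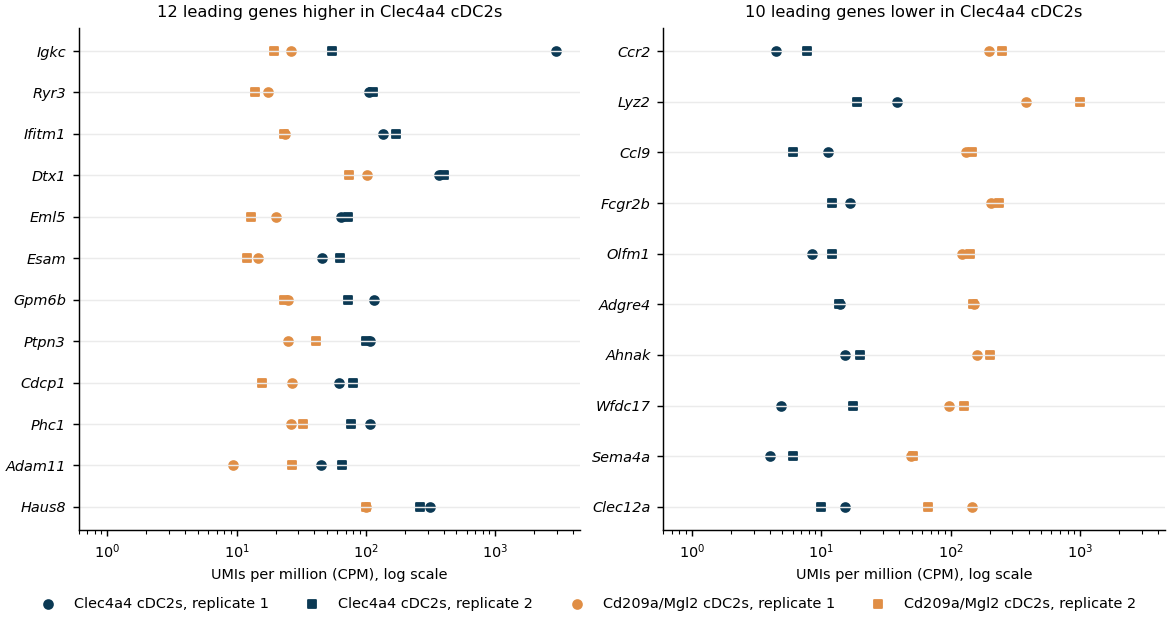
Levels of 12 leading genes higher and 10 lower in members, in CPM on a log axis, in members (dark) and Cd209a/Mgl2 cDC2s (orange). Circles are replicate 1 and squares replicate 2. Igkc is the gene in which the members' replicates lie far apart (2937 and 55.1 CPM), and Ccr2 lies under 8 CPM in members.

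Of 14 genes listed for ESAM-high cDC2s, 13 were tested, and 6 were higher and 2 lower in members. The median log2 fold change was 0.69 against 0.00 over all genes tested. The calls were 46.2% and 15.4% of the genes tested, beside 2.87% and 4.99% of all genes. The list holds Dtx1, Esam and Mmp9, which gave 3 of the 6 higher calls. Members were chosen on Clec4a4, the gene of DCIR2, which ESAM+ cDC2s carry, so the counts are no independent evidence for the name. Adam23, a disintegrin without protease activity, stood at 972 and 995 CPM in members against 612 and 447 CPM (log2 fold change 0.81, SE 0.12, adjusted p = 0.000618). Ltb, the lymphotoxin subunit that shapes splenic stroma, stood at 139 and 139 CPM against 93.9 and 67.6 CPM (0.69, SE 0.17, adjusted p = 0.0195), and Acp5, a phosphatase, at 71.5 and 73.8 CPM against 42.3 and 41.7 CPM (0.71, SE 0.19, adjusted p = 0.0347). Ltb and Acp5 did not pass in DESeq2. Cd4, carried by many ESAM+ cDC2s, stood at 213 and 280 CPM in members and 224 and 252 CPM in Cd209a/Mgl2 cDC2s, which overlapped (log2 fold change -0.03, SE 0.14, adjusted p = 0.952), against 22.5 and 20.2 CPM in cDC1s. Tbx21, the factor T-bet, stood at 20.1 and 25.9 CPM against 5.37 and 12 CPM and did not pass (adjusted p = 0.0597). The lower genes were the protease inhibitor Cst3, at 991 and 998 CPM against 1909 and 1927 CPM (log2 fold change -1.03, SE 0.07), and the tetraspanin Cd81 (-1.01).

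Of 20 genes listed for ESAM-low cDC2s, 16 were tested, and 12 were lower and 0 higher in members, with a median log2 fold change of -1.42. The share lower was 75%, beside 4.99% of all genes. The comparison group was chosen on Cd209a, Mgl2 and Clec10a, lectins that ESAM-low cDC2s carry. The direction of this list is thus tied to the gate, and the counts are no independent evidence for the name. With Ccr2, Lyz2 and Clec12a already given, the list also held Cx3cr1, the fractalkine receptor of monocytes, at 15.6 and 14.9 CPM in members against 85.2 and 145 CPM (log2 fold change -2.96, SE 0.27, adjusted p = 7.18e-06). Csf1r, the receptor of macrophage colony-stimulating factor, stood at 72.8 and 93.1 CPM against 216 and 264 CPM (-1.61, SE 0.16, adjusted p = 1.31e-05). Fcgr3 (-3.05) and Ly6c2 (-2.71) were low in both groups, and Ly6c2 was -1.50 in replicate 1 and -6.01 in replicate 2. S100a4, Klf4 and Csf3r did not pass. Among 11 monocyte markers 5 were tested and 4 were lower, and their summed level was 569 and 641 CPM in members against 950 and 1241 CPM in Cd209a/Mgl2 cDC2s, which were the higher group in both samples. Whether monocyte RNA or cells in the comparison group have a part in these differences was not tested.

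**Figure D4:**
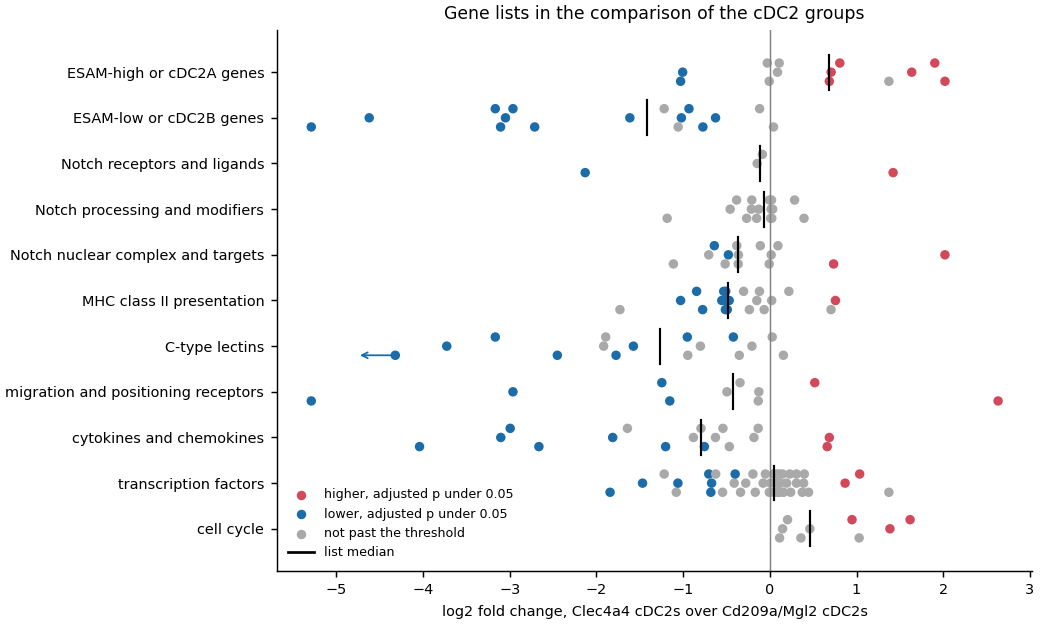
Log2 fold changes of the tested members of the gene lists, Clec4a4 high cDC2s minus Cd209a/Mgl2 cDC2s. Red points passed as higher, blue points as lower, grey points did not pass, bars are medians, and the arrow marks Cd209c at its bound. The ESAM-low list lies lowest among the lists that describe cDC2s (median -1.42), and the medians of the Notch lists lie between -0.36 and -0.07. The comparison group was gated on lectins of ESAM-low cDC2s.

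The genes of the Notch pathway were taken in order from receptors to targets. Over 47 genes in 3 lists, 34 were tested, 3 were higher and 3 lower in members, and the median log2 fold change was -0.14. The counts stood at 8.82% each beside 2.87% and 4.99% of all genes. Dtx1, a marker named from earlier results of the same cells, gave 1 of the 3 higher calls. Notch2, the receptor on which ESAM+ cDC2s are known to depend, stood at 229 and 204 CPM in members and 214 and 240 CPM in Cd209a/Mgl2 cDC2s, with samples that overlapped (log2 fold change -0.15, SE 0.12, adjusted p = 0.602). Notch1 was low, at 1.79 and 3.86 CPM against 12.7 and 10.2 CPM (-2.13, SE 0.57, adjusted p = 0.0343), with -2.87 in replicate 1 and -1.46 in replicate 2. Jag1, a ligand, stood at 29.9 and 20.4 CPM against 10.1 and 7.41 CPM (1.42, SE 0.37, adjusted p = 0.0291). Neither Notch1 nor Jag1 passed in DESeq2. None of the 16 processing and modifier genes tested passed, among them the protease Adam10 (101 and 76.0 CPM against 101 and 93.6 CPM) and the glycosyltransferase Lfng (198 and 188 CPM against 185 and 176 CPM).

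Of 14 nuclear and target genes tested, Dtx1 and Ccnd1 were higher and Rbpj and Dtx3l lower. Ccnd1, the cell cycle regulator cyclin D1, stood at 1661 and 1578 CPM in members against 878 and 961 CPM, 1.66-fold higher (log2 fold change 0.74, SE 0.08, adjusted p = 4.14e-05). Rbpj, the DNA-binding partner of Notch, stood at 164 and 194 CPM in members, 280 and 244 CPM in Cd209a/Mgl2 cDC2s and 338 and 362 CPM in cDC1s, and was lower in members than in either group of the same samples (-0.64, SE 0.13, adjusted p = 0.00639 against Cd209a/Mgl2 cDC2s). Hes1, a repressor that Notch induces in many tissues, stood at 108 and 87.1 CPM against 88.5 and 98.2 CPM, with overlapping samples (-0.01, SE 0.17, adjusted p = 0.988). Dtx3l, a relative of Deltex, was at 142 and 125 CPM against 173 and 179 CPM (-0.48, adjusted p = 0.0383), and did not pass without the filter on low counts, with the cell filter of the study, with at least 4 Clec4a4 UMIs or in DESeq2. Of the targets tested, Dtx1 differed the most between the groups and Hes1 did not pass, and the cells are named here by Clec4a4 and not by the pathway.

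Of 43 transcription factors tested, 2 were higher (4.65%, beside 2.87% of all genes) and 7 lower (16.3%, beside 4.99%). Id2, an inhibitor of E proteins, stood at 349 and 369 CPM in members, 142 and 192 CPM in Cd209a/Mgl2 cDC2s and 1160 and 1146 CPM in cDC1s (log2 fold change 1.04, SE 0.14, adjusted p = 0.00028 against Cd209a/Mgl2 cDC2s). Relb, an NF-kB subunit required for splenic cDC2s, stood at 394 and 452 CPM against 253 and 182 CPM (0.87, SE 0.14, adjusted p = 0.00128). Irf8 stood at 12.1 and 20.9 CPM in members, 56.3 and 53.7 CPM in Cd209a/Mgl2 cDC2s and 1883 and 1940 CPM in cDC1s (-1.84, SE 0.28, adjusted p = 0.000719). Members thus had the lowest Irf8 level of the groups compared. Zeb2, a repressor that acts in the fate choices of dendritic cells, stood at 182 and 173 CPM against 320 and 383 CPM (-1.06, SE 0.12), and Cebpa, a myeloid factor, at 25.9 and 22 CPM against 54.3 and 73.2 CPM (-1.47, SE 0.24). Tcf4, the E protein of pDCs, stood at 155 and 160 CPM against 205 and 284 CPM (-0.70, adjusted p = 0.00804), and did not pass without cells holding UMIs of other lineages. Runx1 (-0.67), Egr1 (-0.68) and Irf2 (-0.40) were lower as well, and Egr1 did not pass against the comparison group without the exclusion gates. Irf4 (0.08, adjusted p = 0.869), Klf4 at 263 and 318 CPM against 278 and 254 CPM and Runx3 at 483 and 457 CPM against 374 and 384 CPM did not pass.

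**Figure D5:**
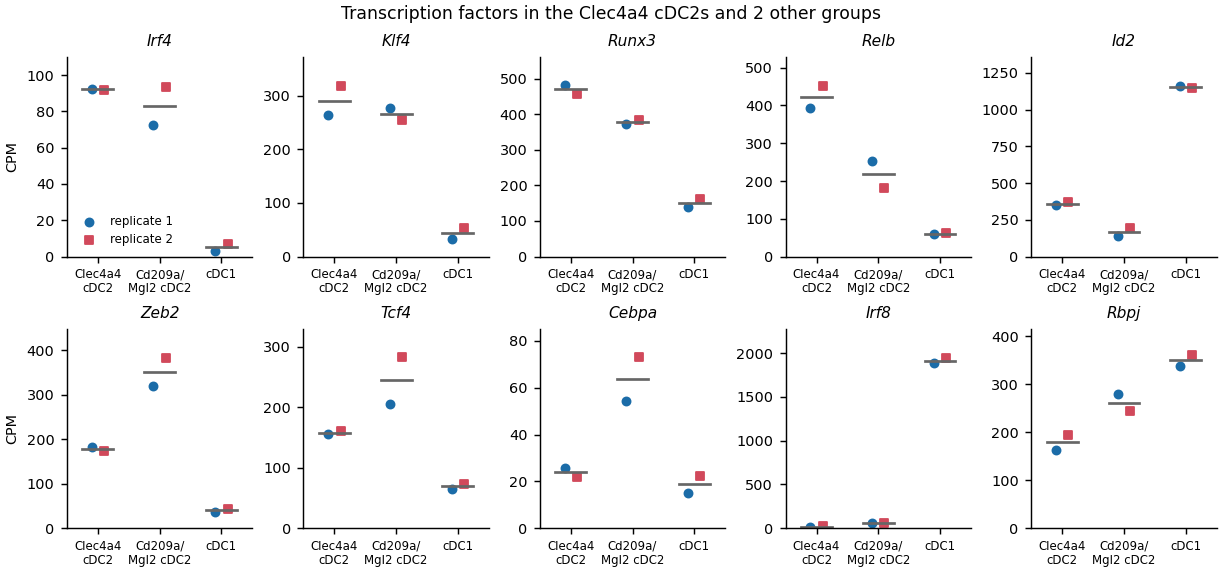
Levels of 10 transcription factors in CPM on linear axes, each gene on its own scale, in Clec4a4 high cDC2s, Cd209a/Mgl2 cDC2s and cDC1s, with 1 point per replicate. Irf4 of the members overlaps with Cd209a/Mgl2 cDC2s and lies above cDC1s, Irf8 is lowest in the members (12.1 and 20.9 CPM), and Id2 of the members lies between the other groups.

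Of 20 genes of antigen presentation on MHC class II tested, 10 were lower in members (50%) and 1 higher (5%). Over all genes tested 4.99% were lower and 2.87% higher. The median log2 fold change of the list was -0.48. H2-Aa, an MHC class II α chain, stood at 9681 and 10432 CPM in members against 13749 and 14161 CPM, 1.47-fold lower in members (log2 fold change -0.55, SE 0.04, adjusted p = 1.08e-06). Cd74, the invariant chain, stood at 15770 and 15681 CPM against 21069 and 21215 CPM (-0.51, SE 0.03, adjusted p = 7.27e-08), and H2-Ab1 and H2-Eb1 had log2 fold changes of -0.51 and -0.53. The differences were small and the samples close together. H2-DMa, which loads peptides, had a log2 fold change of -0.78 and the protease Ctss of -0.51. H2-Eb2 was the higher gene, at 220 and 225 CPM against 149 and 96.4 CPM (0.76, SE 0.16, adjusted p = 0.00935). Ciita, the master regulator of these genes, stood at 897 and 833 CPM against 852 and 758 CPM and did not pass (0.02, adjusted p = 0.945).

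Of the receptors for migration and positioning, 10 were tested, 2 were higher (20%) and 4 lower (40%), beside 2.87% and 4.99% of all genes. Ccr6, the receptor of the chemokine CCL20, stood at 50.0 and 38.6 CPM in members against 2.68 and 12 CPM in Cd209a/Mgl2 cDC2s, 6.20-fold higher (log2 fold change 2.63, SE 0.42, adjusted p = 0.00115), with 4.10 in replicate 1 and 1.59 in replicate 2. A Ccr6 UMI was found in 31.6% and 25.3% of members, 2.80% and 7.62% of Cd209a/Mgl2 cDC2s and 4.17% and 3.91% of the shallower T cells. Ccr6 was not confined to the members, since B cells held more, 58.9 and 84.8 CPM, and mature DCs held 24.8 and 26.1 CPM. P2ry10, a lysophospholipid receptor, stood at 314 and 257 CPM against 176 and 202 CPM (0.52, adjusted p = 0.024). Cxcr4, the receptor of CXCL12, was lower at 71.9 and 131 CPM against 195 and 228 CPM (-1.15, SE 0.21, adjusted p = 0.00291), as were Ccr2 and Cx3cr1. Gpr183, the oxysterol receptor that leads cDC2s to the bridging channels, stood at 250 and 311 CPM against 288 and 290 CPM and did not pass (-0.13, adjusted p = 0.67), with 14.2 and 21.2 CPM in cDC1s. P2ry10 did not pass in DESeq2.

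Among C-type lectins other than the gate genes, 16 were tested, 8 were lower (50%, beside 4.99% of all genes) and 0 higher. The close relatives of Clec4a4 were lower in members or did not pass. Clec4a3, an inhibitory receptor, stood at 56.7 and 58.4 CPM in members against 158 and 167 CPM (log2 fold change -1.57, SE 0.15, adjusted p = 1.2e-05), Clec4b1 at 13.9 and 13.2 CPM against 39.6 and 49.1 CPM (-1.77) and Clec4a1 at 260 and 289 CPM against 341 and 354 CPM (-0.42, adjusted p = 0.0303). Clec4a2, which shares the longest run with Clec4a4, stood at 129 and 137 CPM against 117 and 130 CPM and did not pass (0.03, adjusted p = 0.955). Cd209c, a relative of the gate gene Cd209a, gave 0 UMIs in members and 38 in the comparison group, at least 19.98-fold lower against a floor of 3 UMIs over the group. The median log2 fold change over the list was -1.26, also with Cd209c at that bound.

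Of the cytokines and chemokines, 17 were tested, 2 were higher (11.8%) and 7 lower (41.2%), beside 2.87% and 4.99% of all genes. Il1b, the inflammatory cytokine, stood at 713 and 806 CPM in members against 1604 and 1699 CPM (log2 fold change -1.20, SE 0.09, adjusted p = 7.45e-07). Ccl6 (-3.10) and Cxcl16 (-3.00) were lower too, and Ccl3 by less (-0.75). Ccl5, a chemokine for T cells, was higher at 386 and 476 CPM against 282 and 231 CPM (0.66, SE 0.13, adjusted p = 0.00552). Cd274, the checkpoint ligand PD-L1, stood at 296 and 288 CPM against 136 and 173 CPM (0.85, SE 0.13, adjusted p = 0.000965), the 1 higher gene of 19 costimulatory and checkpoint genes tested, of which 4 were lower. Over these 19 genes 5.26% were higher and 21.1% lower. Cd80, Cd86 and Cd40 did not pass.

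Of 18 growth factor receptors tested, Kit, the receptor of stem cell factor, was higher at 278 and 279 CPM against 183 and 173 CPM (log2 fold change 0.56, SE 0.12, adjusted p = 0.00705) and 6 were lower, among them Csf2ra (-0.70), Csf2rb2 (-1.82) and Il10ra (-0.71). Of 26 adhesion genes tested, 3 were higher and 10 lower. The integrin subunit Itgb3 stood at 46.9 and 47.9 CPM against 13.4 and 17.6 CPM (1.55, SE 0.27, adjusted p = 0.00212), and Itgam, the CD11b chain, at 136 and 98.1 CPM against 161 and 166 CPM (-0.56, adjusted p = 0.044), a call that was lost in 5 of the 10 alternatives run. Of 11 matrix proteases and inhibitors tested, Mmp9, Adam23 and Adam8 (0.81) were higher and Plaur (-1.89), the receptor of urokinase, lower, with -2.60 in replicate 1 and -1.37 in replicate 2. Of 21 pattern recognition receptors tested, Nod1 (0.62) was higher and Tlr11 (-2.48) and Ly86 (-0.44) lower. Of 13 genes of lymphotoxin and noncanonical NF-kB signalling tested, Ltb and Relb were higher and 0 lower. Shares higher and lower were 5.56% and 33.3% for growth factor receptors, 11.5% and 38.5% for adhesion genes and 27.3% and 9.09% for proteases. They were 4.76% and 9.52% for pattern recognition receptors and 15.4% and 0% for the lymphotoxin list, beside 2.87% and 4.99% of all genes. Counts of 1 and 2 genes say little about a list. The markers Esam and Mmp9, named from earlier results, are among the higher adhesion genes and proteases.

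Gene groups that mark the state of a cell were set beside these results. Of 21 interferon response genes tested, 0 were higher and 1 lower (4.76%), beside 2.87% higher and 4.99% lower among all genes tested. The shares higher and lower were 9.09% and 40.9% for the immediate early and stress genes and 33.3% and 0% for the cell cycle genes. Of 22 immediate early and stress genes, 2 were higher and 9 lower, among them Atf3 at 103 and 101 CPM in members against 325 and 395 CPM (log2 fold change -1.90, SE 0.13, adjusted p = 5.72e-07), Hspa1b (-1.48) and Egr1 (-0.68, with the exception given above), genes that cell isolation can induce, and the part of isolation in these differences was not tested. Of 9 cell cycle genes tested, Mcm2, Mcm5 and Mcm6, subunits of the replicative helicase, were higher, Mcm6 at 67.0 and 63.4 CPM against 26.8 and 19.5 CPM (1.39, SE 0.23, adjusted p = 0.00166), although both groups had been gated on Top2a and Mki67. The summed level of the 18 cell cycle genes was 381 and 404 CPM in members against 264 and 265 CPM in Cd209a/Mgl2 cDC2s. Irf2, Nod1, Ly6c2, Mcm2 and Mcm5 did not pass in DESeq2, and Adam11, Irf2, Ly86, Mcm2 and Mcm5 did not pass with at least 4 Clec4a4 UMIs. Mcm5 was lost in 5 of the 10 alternatives run.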

How the data were processed

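Splenic CD11c+ cells of 2 wild-type samples were captured on the BD Rhapsody system. The authors deposited UMI counts per cell and gene, without normalization, made with the BD Rhapsody WTA Analysis Pipeline 1.12.1 on GRCm38 with the GENCODE vM19 annotation, with refined cell calling and intronic reads counted. R 4.2.3 and Seurat 4.3.0.1 stand in the submitters' processing notes. Each table held 27032 genes.

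Members and comparison groups were gated on raw UMIs in Python 3.11.15 (numpy 2.4.6, pandas 2.3.3, scipy 1.17.1) with no other filter on cells, and no doublets were removed. Scrublet in scanpy 1.11.5 called 34 and 26 cells (0.939%), of which 1 and 0 were members, and an alternative left them out. UMIs were summed per sample and group and tested in R 4.3.3 with edgeR 4.0.16 (quasi-likelihood test, TMM, filterByExpr), with Benjamini-Hochberg adjusted p-values over the whole table, after 10 gate genes had been left out. Standard errors were taken as log2 fold change over the root of F. DESeq2 1.42.0 was an alternative, and figures were drawn with matplotlib 3.10.9. The test was tested on simulated data.

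Both groups of a test came from the same samples, so the replicate numbers pair the sums. The deviations of a sample from the group means had a correlation of 0.120 over genes against Cd209a/Mgl2 cDC2s and 0.099 against cDC1s, and a fit with a replicate block was run as well. The counts of the replicates differed by more than sampling noise, since chi-square over its degrees of freedom was 3.14 in members and 2.29 in Cd209a/Mgl2 cDC2s.

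Genes named were the gate genes, Dtx1, Mmp9 and Esam, the 12 that changed the most in each direction among those past the threshold in the same direction in both samples with at least 50 CPM in the higher group, up to 6 members past the threshold per direction of 31 gene lists, and members of the lists of Notch genes, transcription factors and migration receptors with at least 20 CPM. Further genes of the lists named as not passing, and Tcf7, were chosen after their values were seen. The members, the lists and the tests were chosen with earlier results of these data known. The gene lists are short and share genes. Promoters and their positions came from RefSeq tables on GRCm38.p6. Promoters were matched by symbol for 7458 of the 9384 genes tested. Sample tags of other mice in the run were not analysed here, and a few genes that met the naming rule are not reported here.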

Additional observations from a re-analysis of the deposited data

How the results depend on the processing

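Against Cd209a/Mgl2 cDC2s, 737 genes passed. DESeq2 called 383 (125 higher, 258 lower), 377 of them also among the 737. Against all cells with at least 3 UMIs of Cd209a, Mgl2 and Clec10a and 0 of Clec4a4, without the gates on other cells, 2010 genes passed (790 higher, 1220 lower), in sums of 351 and 300 cells. The other alternatives called between 504 and 997 genes, and the count against cDC1s, 4643, lay between 3200 and 4943. With the replicate block 997 genes were called, with all of the 737 among them, and it changed no call of a named gene. Of 112 named genes that passed, 83 kept their call in DESeq2. With at least 4 Clec4a4 UMIs 109 of them were tested and 91 kept their call. Without cells holding UMIs of other lineages 111 were tested and 102 kept it. In the other alternatives between 103 and 112 of the 112 did. Igkc turned to -2.16 with at least 4 Clec4a4 UMIs and to -0.87 with the gate on cells thinned to 5000 UMIs, both without the cell that held most of its UMIs in replicate 1. The mean share of members was 9.06% with at least 1 Clec4a4 UMI, 1.87% with at least 4, 6.04% with the cell filter of the study and 4.02% with the thinned gate, and it lay between 5.12% and 5.83% without replicate 1 or replicate 2. A single sample leaves 0 residual degrees of freedom, so its fold change has no test. At this depth a Clec4a4 or Cd209a UMI can be missed in a cell that expresses the gene, and the gates divide cells by counts and not by type.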

Other observations

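Against cDC1s, where 19% of the genes tested were higher and 20.9% lower, some gene groups had more genes higher than lower in members. Of 24 interferon response genes tested, 15 were higher and 6 lower in members than in cDC1s, with a median log2 fold change of 1.56. Of 14 genes of lymphotoxin and noncanonical NF-kB signalling, 9 were higher and 0 lower, with a median of 0.86. Of 23 pattern recognition receptors, 11 were higher and 7 lower. The genes named here were chosen after their values were seen. Isg15, a ubiquitin-like interferon response protein, stood at 43.8 and 47.9 CPM in members and 10.1 and 14.8 CPM in cDC1s (edgeR log2 fold change 1.69, SE 0.21, adjusted p = 4.93e-05). Cadm3, a cell adhesion molecule, stood at 139 and 121 CPM in members, 85.9 and 84.3 CPM in Cd209a/Mgl2 cDC2s and 4.69 and 3.92 CPM in cDC1s. Tlr3, the receptor of double-stranded RNA, stood at 5.81 and 7.71 CPM in members and 305 and 292 CPM in cDC1s.

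Clec4a4 was also found in cells outside the members. Mature DCs, gated on Ccr7, held 34.5 and 34.7 CPM of Clec4a4, cycling cells 59.0 and 48.9 CPM, T cells 5.85 and 13.8 CPM and macrophages 5.10 and 5.09 CPM. The T cell levels rest on few counts, 2 UMIs in 1 of 48 cells and 19 UMIs in 5 of 179. Those of macrophages rest on 38 and 20 UMIs. The double positive cells held 247 and 252 CPM of Clec4a4, close to the 289 and 279 CPM of the members.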
